A study of Mus musculus with 6 samples.

Results

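The genes of cholesterol and fatty acid synthesis, with the regulators that set their transcription and the genes that store or export sterol, were followed in mouse cortical astrocytes transfected with BRAF KE. The 36 genes were chosen by name from a table of 55357 genes, and all 36 exceeded the mean of 10 normalized counts that was required for testing. By the culture method of the study, astrocytes came from the cortex of C57BL/6 embryos on embryonic day 18, and dishes were shaken before replating, a step that detaches loosely bound cells. In 3 cultures (KE), FLAG-tagged BRAF with the K499E substitution was expressed from a plasmid with the CMV promoter, which is not restricted to one cell type, and mRNA was sequenced 48 hours after transfection. The 3 control cultures (NT) carried no plasmid and are labelled naive and non-transfected. Neither an empty vector nor BRAF WT was among the cultures analysed here, so that BRAF KE and the transfection itself cannot be told apart in any result. The labels do not say whether the 3 cultures of a group came from separate animals, so p-values measure the spread between these cultures, which may be technical.

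Plasma lipoproteins do not cross the blood-brain barrier, so the brain makes its own cholesterol, and astrocytes are among the cells that make it. Acetyl-CoA is converted through mevalonate to farnesyl diphosphate, then to squalene, and the ring formed from squalene is trimmed to cholesterol. Most of these enzymes, and those of fatty acid synthesis, are transcribed under the control of SREBP proteins. When sterol is low, SCAP escorts SREBP from the endoplasmic reticulum to the Golgi, where proteases release its active part. When sterol or oxysterol is high, INSIG proteins hold SCAP back. LXR receptors are activated by oxysterols and raise the transcription of the sterol exporters ABCA1 and ABCG1.

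Synthesis genes were lower in KE as a group. Of the 36 genes, 27 were downregulated and 5 upregulated at an adjusted p-value under 0.05 from limma, and 4 were not called. Downregulation thus covered 75% of these genes, beside 26.0% of all 15280 tested genes. The 36 genes were chosen with earlier results of these data known, so the choice itself may have raised this share. Called in either direction were 88.9% of these genes and 51.3% of all tested genes, while 25.3% of all tested genes were upregulated. The median log2FC was -0.38 for the 36 genes and 0.00 for all tested genes. Most changes were moderate, with 33 of the 36 genes below 1 in absolute log2FC, beside 13588 of all 15280 tested genes. The groups were fully separated in 31 of the 36 genes, and in 59.9% of all tested genes. For any 1 gene, exact two-sided permutation of 3 KE and 3 NT cultures has 0.1 as its smallest p. The count of upregulated genes was 2 without NT replicate 1, when Fdft1, Scap and Abca1 were no longer called.

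**Figure D1:**
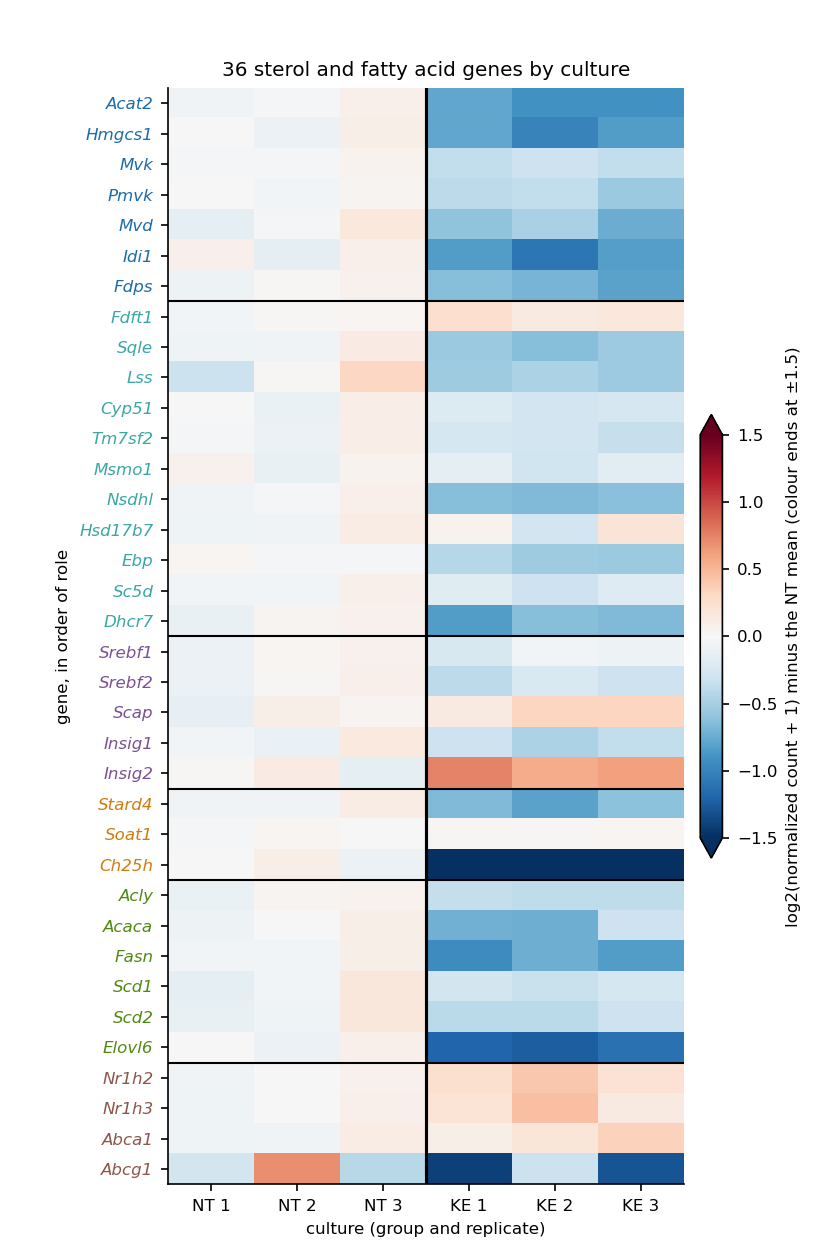
Heat map of the 36 genes (vertical axis, in order of role) in the 3 NT and 3 KE cultures (horizontal axis). Colour shows log2(normalized count + 1) minus the NT mean of the gene and ends at ±1.5, so Ch25h, with a log2FC of -4.08, lies beyond the scale. Blue dominates the KE columns of the mevalonate, sterol and fatty acid rows, and Insig2 is the strongest red row.

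Total normalized counts lay between 30472429 and 30895529 per culture, and the approximate depth between 24500000 reads in KE replicate 2 and 34100000 in KE replicate 1. Braf, the transfected gene, was 35025, 34933 and 40978 in KE and 925, 811 and 946 in NT. Of 12 astrocyte markers, 11 were tested, of which 7 were upregulated and 2 downregulated. Their summed level ranged from 160456 to 163326 in KE and from 114814 to 120262 in NT, and Gjb6 lay between 0 and 1.83. Of 20 microglia and macrophage markers, 19 were downregulated, with a median log2FC of -3.32. Their summed level ranged from 8894 to 11520 in KE and from 61168 to 76469 in NT, and none was at 0 in all 6 cultures. In these bulk samples, fewer cells of a type and less RNA per cell cannot be told apart. Of 9 tested oligodendrocyte lineage markers, 7 were downregulated and 1 upregulated, with sums of 29787 to 34867 in KE and 38171 to 38399 in NT. Olig1 gave most of the oligodendrocyte sums, with means of 20749 in KE and 23693 in NT. Among neuron markers, 2 of 7 were downregulated, 1 upregulated and Slc17a6 at 0 in all cultures, and their sums were 6826 to 7315 in KE and 8871 to 9588 in NT. Most of these sums came from Map2, with means of 4965 in KE and 7077 in NT, so they mainly show this gene. Fibroblast and vascular markers summed to 2077 to 2196 in KE and 2109 to 2696 in NT, with 3 of 8 downregulated and 2 upregulated. All 14 interferon-response genes were upregulated, with sums of 236322 to 243845 in KE and 22891 to 33338 in NT. The part of these cell types and of the interferon response in the results for sterol and fatty acid genes was not tested.

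**Figure D2:**
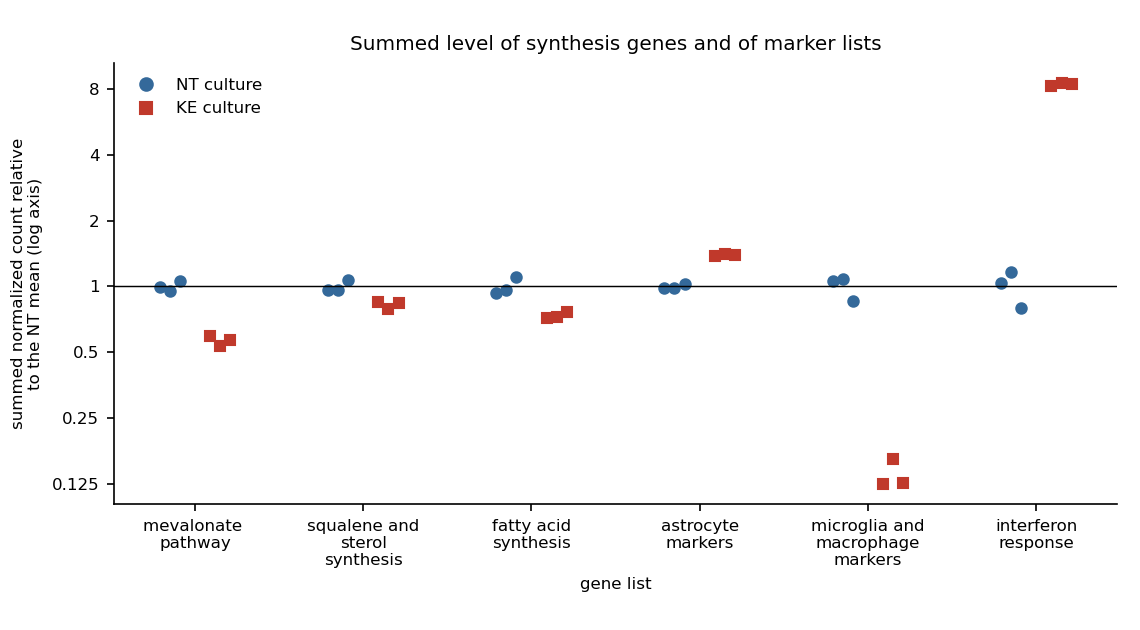
Summed normalized count of 3 groups of synthesis genes and 3 reference lists (horizontal axis) in each culture, relative to the NT mean of the list (vertical axis, log scale). Circles are NT and squares KE cultures. The summed level of the mevalonate genes in KE was 0.566 of that in NT, and that of the microglia and macrophage markers 0.138. The sum of the interferon-response genes in KE was 8.37 times that in NT. Hmgcs1, with means of 15347 in KE and 28107 in NT, was the largest single part of the mevalonate sum. Scd2, with means of 61416 in KE and 79736 in NT, made up most of the fatty acid sum.

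The mevalonate pathway, which builds the isoprenoid precursors of cholesterol, was downregulated at each of the 7 steps measured. Hmgcs1, which condenses acetyl-CoA and acetoacetyl-CoA to HMG-CoA, was 16328, 14064 and 15649 in KE and 27922, 26444 and 29954 in NT. Every KE culture lay well below every NT culture, with means of 15347 ± 1162 and 28107 ± 1762 (SD, n = 3). The log2FC was -0.87 (limma, adjusted p = 2.26e-06, standard error 0.07). Idi1, the isomerase that interconverts the activated isoprene units, was 5538, 4685 and 5586 in KE and 10401, 8931 and 10463 in NT. Its log2FC of -0.92 (limma, adjusted p = 5.23e-06, standard error 0.08) was the largest of the pathway, and the groups did not overlap. Acat2, a cytosolic thiolase that supplies acetoacetyl-CoA, was 2511, 2302 and 2292 in KE and 4160, 4233 and 4558 in NT, a log2FC of -0.87. Fdps, which makes farnesyl diphosphate, fell by 0.71 on the log2 scale, from 7066 ± 354 to 4313 ± 246 (SD, n = 3). The kinases and the decarboxylase that carry mevalonate to isopentenyl diphosphate changed less, with log2FC of -0.35 for mevalonate kinase Mvk, -0.44 for phosphomevalonate kinase Pmvk and -0.61 for the decarboxylase Mvd. The adjusted p of these 3 genes lay between 0.000233 and 0.000656 in limma, and the groups did not overlap for any of them. Exons of Acat2 share 322 bases with Tcp1 on the opposite strand, and Acat3 is a close relative of Acat2 to which reads could have been assigned. Acat3 was far lower, at 208 to 234 in KE and 165 to 171 in NT, and had a log2FC of 0.37.

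Promoters are shown for the 4 called synthesis or SREBP genes with the largest change whose window holds a searched motif, which were Idi1, Hmgcs1, Acat2 and Fasn, the fatty acid synthase described below. The elongase Elovl6 changed more than these 4 genes, but its window holds none of the searched motifs and is not shown. Each window runs from 250 bases before to 50 bases after the RefSeq start, as given in RefSeq's GRCm38.p6 table, and was located by exact match in GRCm39. The Idi1 window lies at chr13:8935392-8935691 on the plus strand, that of Hmgcs1 at chr13:120151637-120151936 on the plus strand, that of Acat2 at chr17:13179563-13179862 on the minus strand and that of Fasn at chr11:120715324-120715623 on the minus strand. Letters are written 5′ to 3′ along the gene, and capitals mark the motifs on either strand.
Idi1: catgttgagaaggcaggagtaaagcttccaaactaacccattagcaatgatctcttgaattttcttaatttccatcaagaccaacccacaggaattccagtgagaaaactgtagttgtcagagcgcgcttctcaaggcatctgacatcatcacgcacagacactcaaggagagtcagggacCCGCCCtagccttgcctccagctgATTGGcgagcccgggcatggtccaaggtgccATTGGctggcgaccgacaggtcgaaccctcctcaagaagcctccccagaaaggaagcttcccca
Hmgcs1: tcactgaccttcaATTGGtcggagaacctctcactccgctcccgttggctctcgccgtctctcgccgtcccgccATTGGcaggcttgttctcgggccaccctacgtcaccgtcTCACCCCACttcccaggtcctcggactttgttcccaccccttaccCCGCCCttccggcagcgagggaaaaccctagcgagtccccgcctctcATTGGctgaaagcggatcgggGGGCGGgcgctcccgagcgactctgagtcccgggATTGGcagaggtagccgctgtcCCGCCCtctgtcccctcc
Acat2: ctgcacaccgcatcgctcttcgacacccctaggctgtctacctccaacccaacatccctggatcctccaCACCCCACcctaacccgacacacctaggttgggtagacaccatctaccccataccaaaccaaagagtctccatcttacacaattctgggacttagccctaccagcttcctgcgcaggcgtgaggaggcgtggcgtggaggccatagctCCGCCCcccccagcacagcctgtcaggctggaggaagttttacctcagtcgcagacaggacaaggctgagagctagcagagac
Fasn: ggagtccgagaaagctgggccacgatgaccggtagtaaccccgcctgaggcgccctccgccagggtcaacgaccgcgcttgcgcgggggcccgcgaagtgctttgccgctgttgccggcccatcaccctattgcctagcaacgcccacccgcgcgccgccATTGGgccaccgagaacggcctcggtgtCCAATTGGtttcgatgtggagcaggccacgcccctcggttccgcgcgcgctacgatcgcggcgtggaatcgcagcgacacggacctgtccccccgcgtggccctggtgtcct

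Motifs searched on both strands were TCACNCCAC, a core of the sterol regulatory element bound by SREBP, CCAAT, the box of NF-Y, GGGCGG, the box of Sp1, and the E-box CACGTG. The shorter element CACCCCAC, part of the first motif where N is C, was added after the first had been counted. RefSeq windows matched 29 of the 36 genes, and the other genes were Abcg1, Scd1, Fdft1, Scd2, Stard4, Sqle and Fdps. The Hmgcs1 window holds TCACCCCAC, whose first base lies at position -137 with the start at 0, together with 4 CCAAT and 3 GGGCGG matches. The first motif was found in the windows of 1 of the 29 matched genes (3.45%) and of 1.44% of all 27025 genes. CACCCCAC was found in 2 of them (6.90%), Hmgcs1 and Acat2, and in 3.30% of all genes. CCAAT was present in 21 of the 29 (72.4%) and in 41.1% of all genes, with 2 matches in the Idi1 window and 3 in that of Fasn, where a pair of matches on opposite strands overlap at -62 and -59. GGGCGG was present in 22 of the 29 (75.9%) and in 38.2% of all genes, and CACGTG in 6 (20.7%) and 8.09%. Among the 21 matched genes that were downregulated, 17 had a CCAAT and 16 a GGGCGG match, beside 21 and 22 of all 29 matched genes. The 27025 genes were not filtered by expression, while the 36 genes all passed such a filter, so these shares compare unlike sets. A match describes letters in the window and was not tested as a binding site.

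From squalene onwards, 9 of 11 genes were downregulated, 1 was upregulated and 1 was not called, and the median log2FC was -0.30, beside -0.71 for the mevalonate genes. Fdft1, the squalene synthase that commits farnesyl diphosphate to sterol, was the exception in direction. Its normalized counts were 7627, 7015 and 7140 in KE and 6193, 6452 and 6539 in NT, so the groups did not overlap. The log2FC was 0.18 (limma, adjusted p = 0.0174, standard error 0.06). This call was lost without KE replicate 1 (adjusted p = 0.0771) and without NT replicate 1 (adjusted p = 0.0617), and the adjusted p ranged from 0.0162 to 0.0771 over the alternatives. Exons of Fdft1 share 1184 bases with Ctsb on the opposite strand. Ctsb was 57137 on average in NT and 62028 in KE and was not called (log2FC 0.12). Other long overlaps with exons on the opposite strand were those of Cyp51 with Akap9 (1253 bases), Scap with 5830462I19Rik (1126) and Ch25h with Gm26902 (698). Somewhat shorter were those of Srebf2 with Shisa8 (686), Mvd with Gm51557 (559), Hmgcs1 with Gm48342 (557) and Sqle with Washc5 (470). The strand setting of the counting is not known, so reads of such pairs may have been counted for either gene.

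Sqle, which adds the oxygen to squalene and is a control point of the pathway, was 5469, 5143 and 5494 in KE and 7656, 7758 and 8714 in NT, and its log2FC was -0.58 (limma, adjusted p = 2.16e-05). Lss, which closes the sterol ring, was 2862, 2978 and 2843 in KE and 3308, 4188 and 5123 in NT. The KE cultures were tightly grouped and the NT cultures were not, and the log2FC of -0.52 moved between -0.68 without NT replicate 1 and -0.36 without NT replicate 3. Dhcr7, which carries out the reduction that ends one branch of the pathway in cholesterol, was 1414, 1619 and 1589 in KE and 2337, 2598 and 2638 in NT, a log2FC of -0.71 (adjusted p = 1.48e-05). Nsdhl, a dehydrogenase that takes part in removing methyl groups, fell by 0.64 on the log2 scale, and the isomerase Ebp by 0.51.

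Smaller decreases were found for Tm7sf2, a sterol reductase (log2FC -0.30), Cyp51, which removes a methyl group from lanosterol (-0.25), Sc5d, a desaturase (-0.23), and Msmo1, a methyl sterol oxidase (-0.20). Msmo1 was 6601, 5901 and 6466 in KE and 7568, 6701 and 7517 in NT, so that the lowest NT culture exceeded the highest KE culture only slightly. Its adjusted p of 0.0278 in limma rose to 0.0974 without KE replicate 2, 0.0944 without NT replicate 1, 0.0899 without NT replicate 3 and 0.0882 without the variance trend, and ranged from 0.00621 to 0.0974 over the alternatives. Tm7sf2 shares 532 exon bases with Vps51 on the same strand, so its reads could be divided in more than one way. Hsd17b7, a reductase of the same demethylation steps as Nsdhl, was 2183, 1724 and 2403 in KE and 2015, 2020 and 2272 in NT. The groups overlapped, and the log2FC was -0.01 with a 95% interval from -0.25 to 0.23.

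**Figure D3:**
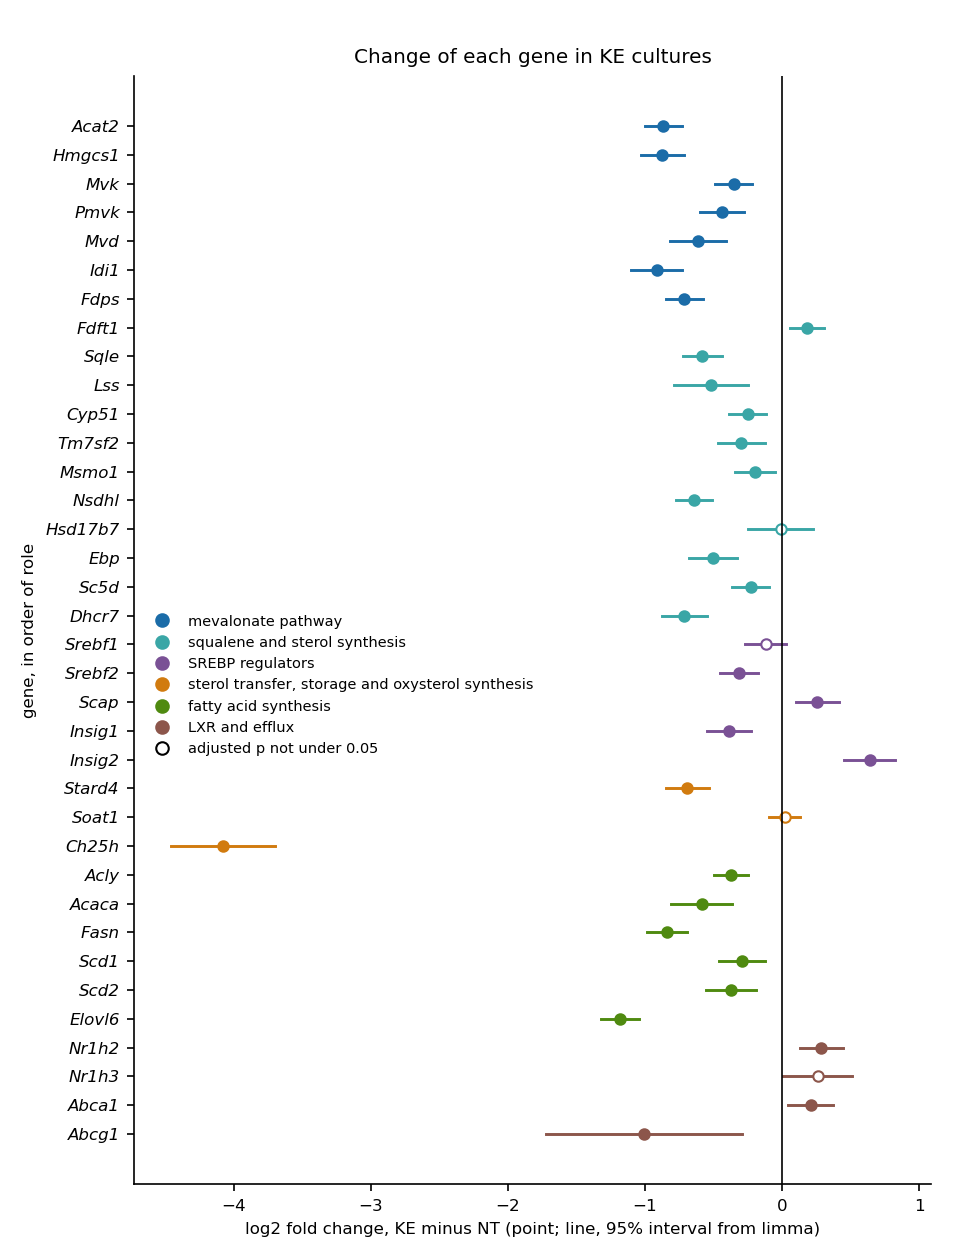
Log2 fold change of each gene in KE relative to NT (horizontal axis), with 95% intervals from limma, in order of role (vertical axis). Filled points had an adjusted p-value under 0.05 and open points did not. All 7 mevalonate and all 6 fatty acid genes lie to the left of 0, Insig2 lies farthest to the right at 0.64, and Ch25h farthest to the left at -4.08.

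The regulators of SREBP did not move in one direction, with 2 downregulated, 2 upregulated and 1 not called. Srebf2, which encodes the SREBP most closely tied to cholesterol synthesis, was 8260, 9222 and 8709 in KE and 10165, 10948 and 11406 in NT. All KE cultures were lower, and the log2FC was -0.31 (limma, adjusted p = 0.0018). Srebf1, whose products favour fatty acid synthesis, was 3038, 3467 and 3394 in KE and 3362, 3651 and 3740 in NT. These ranges overlapped, and the log2FC was -0.12 with a 95% interval from -0.27 to 0.03. The table gives 1 value for Srebf1 and does not separate its promoters. Scap, the escort of SREBP, was 5496, 6256 and 6231 in KE and 4592, 5305 and 5141 in NT, a log2FC of 0.26 (adjusted p = 0.0119). Without NT replicate 1, whose Scap value was the lowest of all 6, the adjusted p of Scap was 0.0504, and it ranged from 0.00186 to 0.0559 over the alternatives.

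Insig1 and Insig2, whose proteins both retain SCAP in the endoplasmic reticulum, moved in opposite directions. In GRCm39, Insig1 is at chr5:28276315-28283668 on the plus strand and Insig2 at chr1:121181760-121260400 on the minus strand. Insig1, itself a target of SREBP, was 8145, 7245 and 7806 in KE and 9793, 9407 and 11154 in NT, a log2FC of -0.39 (limma, adjusted p = 0.0011, standard error 0.07). Insig2, which is transcribed independently of SREBP in many tissues, was 1513, 1335 and 1387 in KE and 915, 987 and 821 in NT. Its KE values lay above all NT values, and its log2FC of 0.64 (limma, adjusted p = 8.62e-05, standard error 0.08) was the largest increase of the 36 genes. Per kilobase of exon, Insig1 exceeded Insig2 by 13.0, 11.6 and 16.5 times in the 3 NT cultures and by 6.54, 6.59 and 6.84 times in the 3 KE cultures. Insig1 thus remained the more abundant of the pair in every culture, and the KE ratios all lay below the NT ratios.

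**Figure D4:**
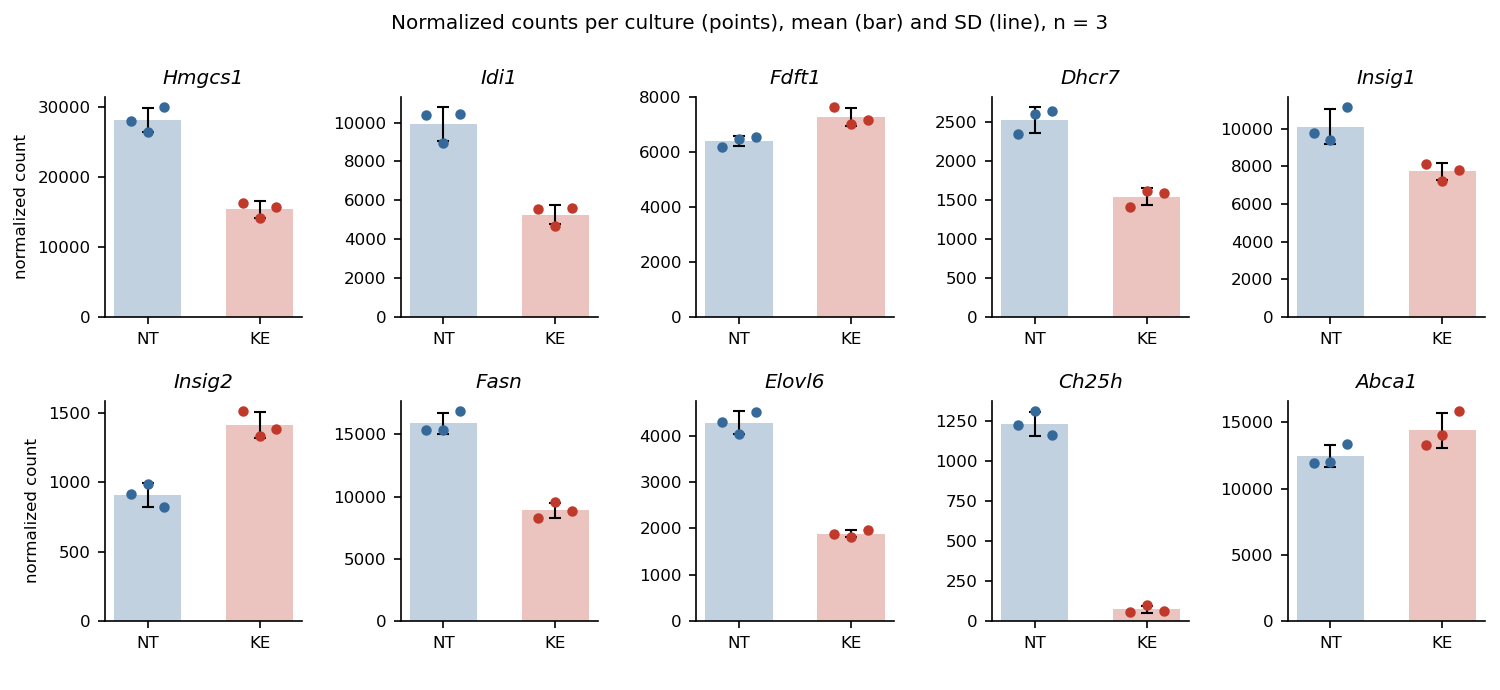
Normalized counts of 10 genes (vertical axes, each from 0) in NT and KE cultures (horizontal axes). Points are cultures, bars means and lines SD, with n = 3 per group. Hmgcs1, Idi1, Dhcr7, Insig1, Fasn, Elovl6 and Ch25h are lower in every KE culture, Fdft1 and Insig2 are higher in every KE culture, and Abca1 overlaps between the groups.

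The 6 chosen genes of fatty acid synthesis, which include the elongase Elovl6 and the desaturases Scd1 and Scd2, were all downregulated. Their median log2FC was -0.48. The largest decrease was that of Elovl6, at chr3:129326004-129432144 on the plus strand, which elongates palmitate to stearate. Its normalized counts were 1876, 1808 and 1964 in KE and 4301, 4025 and 4517 in NT, so that the KE mean was 0.440 of the NT mean. The log2FC was -1.18 (limma, adjusted p = 9.53e-08, standard error 0.06). Fasn, the synthase that assembles palmitate, was 8264, 9537 and 8870 in KE and 15394, 15391 and 16876 in NT, a log2FC of -0.84 (adjusted p = 1.84e-06). Both genes were separated between the groups by more than the spread within either. Acaca, the acetyl-CoA carboxylase that supplies malonyl-CoA, was 3689, 3675 and 4907 in KE and 5774, 6050 and 6451 in NT. KE replicate 3 stood above the other KE cultures, and the log2FC of -0.59 became -0.72 without it. Acly, which releases cytosolic acetyl-CoA from citrate and so feeds both pathways, was 9331, 9202 and 9170 in KE and 11142, 12346 and 12421 in NT, a log2FC of -0.37.

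The desaturases introduce the double bond of oleate, and Scd2 is the main form in brain. Scd2 was 59917, 60233 and 64100 in KE and 73795, 75843 and 89570 in NT, a log2FC of -0.37 (limma, adjusted p = 0.00293). Scd1 was 12685, 12233 and 12826 in KE and 14061, 14948 and 17371 in NT, a log2FC of -0.29 (adjusted p = 0.00729). NT replicate 3 was the highest culture for both genes, and each KE value lay below all NT values. Because Scd1 and Scd2 have similar sequences, reads may have been assigned to the wrong one of them. Per kilobase, Scd2 exceeded Scd1 by 4.52 to 4.79 times in KE and by 4.86 to 5.02 times in NT.

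Ch25h, the hydroxylase that converts cholesterol to an oxysterol that restrains SREBP processing and is produced by activated macrophages, had the largest change of the 36 genes. The gene is at chr19:34451178-34452564 in GRCm39, on the minus strand. Normalized counts were 58.7, 98.8 and 63.4 in KE and 1221, 1310 and 1160 in NT. The NT mean was 16.7 times the KE mean, and the log2FC was -4.08 (limma, adjusted p = 2.19e-08, standard error 0.17). Over the alternatives the log2FC stayed between -4.31 and -3.94. KE replicate 2, the highest KE culture for Ch25h, also had the highest summed level of microglia and macrophage markers among KE cultures, at 11520 against 8894 and 8956. Csf1r and Cx3cr1, receptors that mark these cells and were singled out after their values were seen, had log2FC of -3.46 and -3.97. The part of microglia and macrophages in the Ch25h values was not tested. Ch25h is known as an interferon-response gene in macrophages, and all 14 listed interferon-response genes were upregulated in KE. The part of the interferon response in the Ch25h values was not tested either. Gm26902, an annotated transcript on the opposite strand that shares 698 exon bases with Ch25h, was 0.635 to 3.61 in KE and 20.4 to 26.7 in NT.

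Among genes that move or store sterol, Stard4, which carries cholesterol between membranes and is a target of SREBP, was 2346, 2131 and 2416 in KE and 3568, 3559 and 4009 in NT. All KE cultures were lower, with a log2FC of -0.69 (limma, adjusted p = 1.25e-05). Soat1, which esterifies cholesterol for storage, was 3745, 3752 and 3782 in KE and 3657, 3783 and 3699 in NT. The values overlapped, and the log2FC of 0.02 had a narrow 95% interval from -0.09 to 0.13.

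Of the 4 LXR and exporter genes, 2 were upregulated, 1 was downregulated and 1 was not called. Nr1h2, which encodes the widely expressed LXRβ, was 1569, 1755 and 1546 in KE and 1282, 1320 and 1383 in NT, a log2FC of 0.29 (limma, adjusted p = 0.00558). Nr1h3, which encodes LXRα, was 317, 378 and 301 in KE and 263, 274 and 291 in NT. Its groups did not overlap, but the log2FC of 0.26 had an adjusted p of 0.0775. With quantile normalization the adjusted p of Nr1h3 was 0.0236, and it ranged from 0.0236 to 0.253 over the alternatives. Abca1, which exports cholesterol to apolipoproteins, was 13260, 14085 and 15855 in KE and 11925, 12014 and 13410 in NT. One NT culture exceeded the lowest KE culture, and the log2FC was 0.21 (adjusted p = 0.0378). The Abca1 call was lost without KE replicate 2 (adjusted p = 0.0624), KE replicate 3 (0.135), NT replicate 1 (0.114) or NT replicate 2 (0.108), with quantile normalization (0.0504) and without the variance trend (0.113), with a range from 0.00601 to 0.135 over the alternatives.

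Abcg1, an exporter to lipoprotein particles, was scarce and variable, at 67.8, 144 and 73.3 in KE and 149, 292 and 135 in NT. Replicate 2 was the highest culture of both groups, and the KE and NT ranges overlapped. The log2FC was -1.01 (limma, adjusted p = 0.0228, standard error 0.32). It was not called without the variance trend (adjusted p = 0.088), nor without KE replicate 1 (adjusted p = 0.0927), KE replicate 3 (0.0868) or NT replicate 2 (0.0857), when the log2FC was -0.81, -0.86 and -0.66, and the adjusted p ranged from 0.000627 to 0.0927 over the alternatives.

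Levels of different genes were compared per kilobase of merged exon, the union of all annotated exons of a gene. This length can exceed that of the transcript in the cells, so ranks between genes depend partly on the annotation. In NT, Scd2 was the most abundant of the 36 genes at 10593 ± 1140 normalized counts per kilobase (SD, n = 3), followed by Hmgcs1 at 5335 ± 334 and Idi1 at 2798 ± 244. Scd1 (2145 ± 238) and Insig1 (2073 ± 188) came next and did not differ beyond their spread, and Cyp51 followed at 1629 ± 113. At the low end, Nr1h3 was 54.5 ± 2.77 and Abcg1 24.9 ± 11.3. Scd2 and Hmgcs1 were also the first and second in KE, at 8160 ± 309 and 2913 ± 221. Idi1 moved from rank 3 in NT to rank 6 in KE, at 1485 ± 143, which did not differ from Fdft1 at 1519 ± 67.7 beyond the spread. Ch25h moved from rank 13 to rank 35. The 36 genes lie on 17 chromosomes, with at most 4 on one chromosome.

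**Figure D5:**
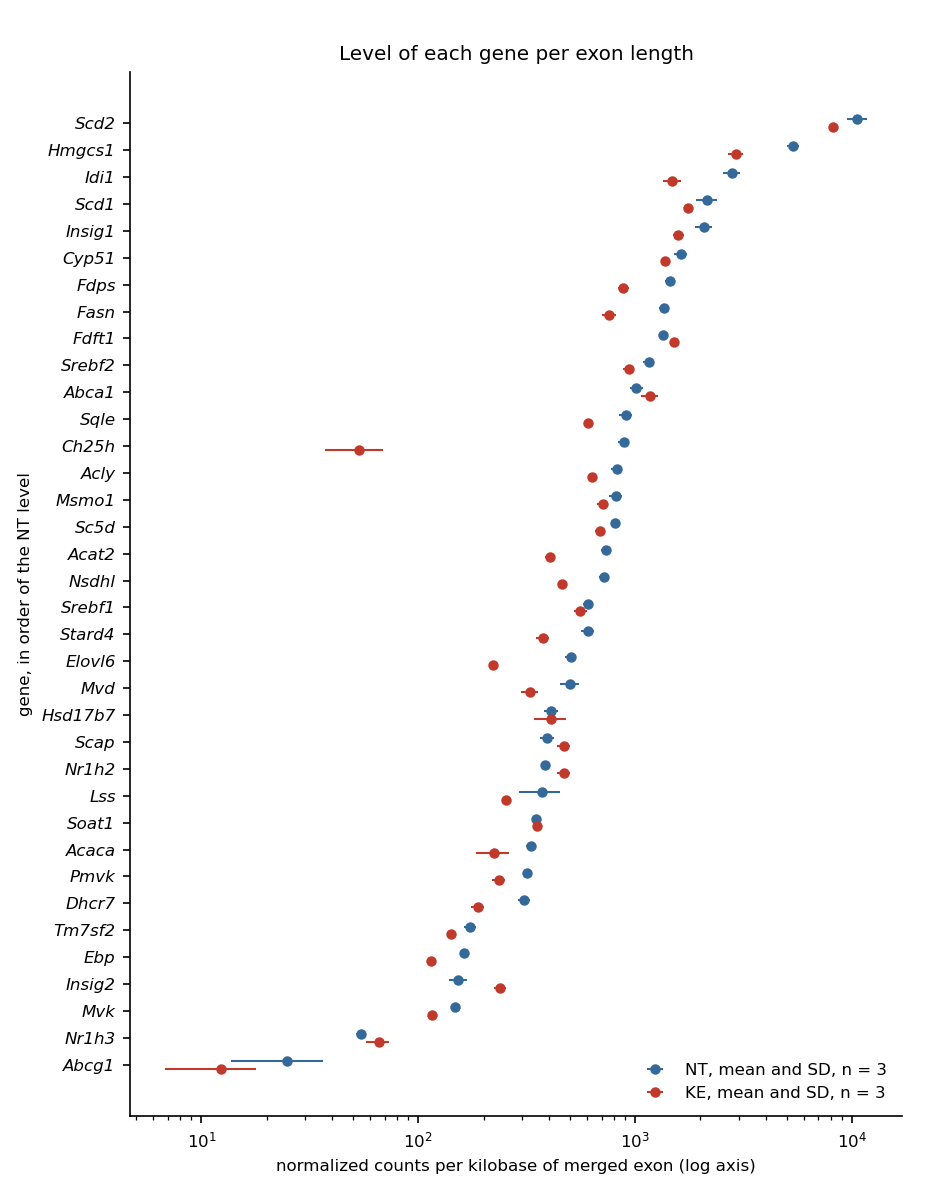
Level of each gene per kilobase of merged exon (horizontal axis, log scale) in NT and KE, ordered by the NT level (vertical axis). Points are means and lines SD, with n = 3 per group. Scd2 has the highest level in both groups and Abcg1 the lowest, and Ch25h shows the widest gap between the groups, with 887 in NT and 53.1 in KE.

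The cultures of a group were not equally placed. NT replicate 3 was the highest NT culture for 29 of the 36 genes and the lowest for 4, while the KE replicates were highest for 12, 13 and 11 genes. NT replicate 3 also had the lowest summed level of microglia and macrophage markers among the NT cultures, at 61168 against 75408 and 76469, and the lowest sum of interferon-response genes, at 22891 against 29892 and 33338. Its summed level of astrocyte markers was the highest of the 3, at 120262 against 114814 and 114838. The part of these differences in the synthesis gene values was not tested. Without NT replicate 3, 26 of the 36 genes were downregulated and 5 upregulated, and the median log2FC was -0.34.

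Other genes of the same pathways, from 4 lists of 60 genes in all, were compared to see how far the decrease extended. Of the 58 tested genes, 22 were upregulated, 15 downregulated and 21 not called, and the median log2FC was 0.00. Called in either direction were 63.8% of them, beside 51.3% of all tested genes. Their downregulated share was 25.9%, beside 26.0% of all tested genes, and their 22 upregulated genes stand beside an upregulated share of 25.3% among all tested genes. In the list of other sterol and isoprenoid genes, 5 of 10 were downregulated and 3 upregulated. Among other genes of SREBP control, 2 of 9 were downregulated and 3 upregulated. Sterol transport and uptake genes had 3 of 17 downregulated and 8 upregulated, and other fatty acid genes had 5 of 22 downregulated and 8 upregulated.

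The largest increase of these lists was that of Acacb, the acetyl-CoA carboxylase of mitochondria, which was 336, 225 and 404 in KE and 53.9, 94.7 and 109 in NT. Its log2FC was 1.91 (limma, adjusted p = 0.000137, standard error 0.27), whereas Acaca, the cytosolic form, was downregulated. Vldlr, a receptor for lipoproteins and reelin, rose from 1523 ± 30.1 to 3510 ± 66.4 (SD, n = 3), a log2FC of 1.20. Cyp7b1 and Cyp46a1, hydroxylases that act on oxysterols and on brain cholesterol, had log2FC of 1.14 and 1.03. The largest decreases were those of Fabp5, a fatty acid carrier (log2FC -1.32), and Mylip, a ubiquitin ligase under LXR control that degrades lipoprotein receptors (-1.23). Lbr, which carries out the same sterol reduction as Tm7sf2, had a log2FC of -0.87, and Elovl2, which elongates polyunsaturated fatty acids, one of -0.82. All 8 genes were fully separated between KE and NT, as the choice of genes required.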

How the data were processed

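RNA-seq was analysed in 3 KE and 3 NT cultures, grouped by their titles. The authors deposited a normalized signal per gene, which the table's name and the tools listed (Salmon, DESeq2) give as gene counts divided by DESeq2 size factors. The submitters' processing notes also name Trim Galore and STAR, and give GRCh38, although the gene identifiers are of mouse. The written methods give Gencode vM28 on GRCm39 for mouse, in a passage that lists hippocampus and spheroid samples and names astrocytes only for a fold threshold, and GRCm39 was taken as the build. Libraries came from a stranded mRNA kit, and the strand setting of the counting is not given in the sources used here. Depth was approximated from the total and the most frequent low value. Only 74.7% to 77.6% of low values lay within 0.1 of whole multiples of it, so reads were not recovered, no count test was run, and precision rests on the spread between cultures.

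The 15280 genes whose mean reached 10 were taken to log2(normalized count + 1), and group was tested in limma 3.58.1 (R 4.3.3) with its trend option. Fold changes on this scale understate changes of low genes. Tests were two-sided and adjusted by Benjamini-Hochberg over all tested genes. Exon lengths and coordinates came from Gencode vM39 on GRCm39, in which 54749 of 55357 identifiers were found. The 36 genes and all lists were chosen with earlier results of these data known. Every one of the 36 genes is named. Of the other pathway genes, the 4 largest increases and 4 largest decreases were named among those called, not overlapping and with a mean of at least 100. Alternatives were other pseudocounts, filters and scalings, limma without the trend, the replicate number as a block, and leaving out each culture.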

Additional observations from a re-analysis of the deposited data

How the results depend on the processing

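Over 15 alternatives, 517 of 540 comparisons of a single gene among the 36 gave the same sign and the same call, 19 lost and 1 gained the threshold, and 3 changed sign, all of genes that were not called. The sign changed for Soat1 with quantile normalization (log2FC -0.0131) and for Hsd17b7 on leaving out 1 culture (-0.11 to 0.13). The number of downregulated genes among the 36 stayed between 25 and 27. The number of upregulated genes was 2 without the variance trend, when Fdft1, Scap and Abca1 lost their call, as did the downregulated Msmo1 and Abcg1, and 2 to 5 on leaving out 1 culture. The cause was not tested. The median log2FC of the 36 genes was -0.41 with quantile normalization and -0.42 to -0.34 on leaving out 1 culture. The median log2FC of all genes was 0.0288 with quantile normalization, beside 0.0018 with the scaling as deposited. Same-numbered KE and NT cultures had correlations of their deviations of 0.06, 0.07 and 0.07 across genes. Each culture correlated best with its own number, a hint from the data, since the labels name no batch. With the replicate number as a block, 27 of the 36 genes were downregulated and 5 upregulated, as without it, and 8046 of all genes were called instead of 7844. The lowest levels among the 36 genes were those of Abcg1 and of Ch25h in KE, and how far depth limits them was not tested.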
